A study of Mus musculus with 8 samples.

Results

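The genes of DNA replication and mitosis were followed in macrophages sorted from mouse left ventricles: 40 genes, listed by symbol for their roles, out of 36708 gene IDs in the deposited table. All 40 were found, in 41 rows, because Kif11 is listed under a second ID with the same values and was counted once. The study holds 4 libraries from recipients of control marrow (BMT in the labels) and 4 from recipients of marrow labelled LOY, short for loss of Y. The labels give both groups the same treatment, Control, and name no strain, age, further allele or procedure that made the marrow LOY. In both groups 6000 cells per library were sorted as CD45.2+Ly6G-CD64+RFP+, with RFP a red fluorescent protein. Values are TPM, an expression unit that corrects for transcript length and sums to 1000000 per library. Library values are given in the order of replicates 1 to 4. Whether a group's libraries came from separate mice is not stated, so p-values reflect sample-to-sample spread that can be technical in part.

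A dividing cell licenses replication origins in G1, copies its DNA in S phase and separates the copies in mitosis. E2F transcription factors switch on the genes of nucleotide supply, the MCM helicase and the replication clamp, and a later wave of transcription brings cyclin B, mitotic kinases and spindle proteins. Between divisions both waves are held down by the DREAM and RB complexes. Heart macrophages renew partly by dividing in place, and the transcripts of these genes are the usual readout of such division in bulk RNA. In bulk samples, fewer dividing cells and less of these transcripts per dividing cell cannot be told apart.

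The libraries between them had 11396 to 12139 genes at 1 TPM or more, and Pearson's r between libraries over tested genes was 0.949 to 0.986. The summed TPM of the Y genes Ddx3y, Eif2s3y, Kdm5d and Uty was 80.8 to 109.1 in control libraries and 2.77, 46.4, 1.5 and 2.12 in LOY replicates 1 to 4. LOY replicate 2 thus goes partly against its label. Of 9 macrophage markers 9 were at 1 TPM or more on average, and the CD64 gene Fcgr1 was at 300.6 TPM or more in every library. Ly6g reached at most 0.197 TPM, and the early neutrophil genes Ngp and Elane were at 0 in all 8. The summed neutrophil list was at 43.7 to 85.9 TPM in control and 86.1 to 104.9 TPM in LOY libraries, apart by a small margin. Csf3r made up most of it, with means of 57.4 (control) and 90.7 TPM (LOY), and Mmp9 was also higher on average. Ly6g, S100a8, S100a9, Retnlg, Camp, Ltf and Mpo had lower means in LOY libraries, so the list did not move as a set. Hemoglobin-led erythroid markers summed to 106.4 to 365.7 TPM in control and 90.6 to 489.3 TPM in LOY libraries, and 8 T and NK cell markers to at most 7.07 TPM. B cell markers summed to 615.3 to 874.5 against 494.7 to 961.8 TPM, nearly all of it Ighm and Cd79b, while Pax5 and Ms4a1 stayed below 1 TPM. Cardiomyocyte markers summed to 72.1 to 152.0 and 93.2 to 196.2 TPM, endothelial markers to 50.2 to 61.9 and 41.5 to 63.7 TPM, fibroblast markers to 16.5 to 30.7 and 16.9 to 29.5 TPM, and dendritic cell markers to 4.40 to 33.9 and 15.8 to 30.8 TPM. The part of these cells in the results below was not tested.

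The promoters of 4 genes are shown as examples with different sets of letters. RefSeq promoters (GRCm38.p6), 250 bases before to 50 after the annotated start, were matched for 32 of the 40 genes, with a second one for Mcm7. Short sequences of 3 kinds were searched on both strands: the E2F core (TTTGGCG, its variant TTTCCCG, a further variant TTTCGCG and lastly TTTGCCG), the CHR element TTTGAA, through which the MuvB core of the DREAM complex binds mitotic genes, and the CCAAT box, the site of the factor NF-Y. Mcm5, a helicase gene, has 2 overlapping E2F cores, 1 per strand, and Top2a, the topoisomerase that untangles chromosomes, has 2 CHR elements. Cdk1, the kinase that drives entry into mitosis, has both kinds, and Rfc4, a clamp loader gene whose groups did not overlap, has none of the searched letters. Capitals mark the matches, 5′ to 3′ in the direction of the gene.
Mcm5 (chr8:75109259-75109558, plus strand): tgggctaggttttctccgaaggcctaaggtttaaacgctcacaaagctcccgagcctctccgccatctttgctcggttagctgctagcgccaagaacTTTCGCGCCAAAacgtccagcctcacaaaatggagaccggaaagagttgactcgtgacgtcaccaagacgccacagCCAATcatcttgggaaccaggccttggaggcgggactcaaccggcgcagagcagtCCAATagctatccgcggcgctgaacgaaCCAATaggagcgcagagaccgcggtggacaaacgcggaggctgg
Cdk1 (chr10:69352863-69353162, minus strand): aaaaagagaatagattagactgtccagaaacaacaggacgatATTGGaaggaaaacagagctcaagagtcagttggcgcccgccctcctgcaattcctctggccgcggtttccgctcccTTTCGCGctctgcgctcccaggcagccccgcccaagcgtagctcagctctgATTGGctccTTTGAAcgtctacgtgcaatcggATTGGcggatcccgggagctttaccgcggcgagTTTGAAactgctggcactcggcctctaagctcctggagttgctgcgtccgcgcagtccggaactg
Top2a (chr11:99024140-99024439, minus strand): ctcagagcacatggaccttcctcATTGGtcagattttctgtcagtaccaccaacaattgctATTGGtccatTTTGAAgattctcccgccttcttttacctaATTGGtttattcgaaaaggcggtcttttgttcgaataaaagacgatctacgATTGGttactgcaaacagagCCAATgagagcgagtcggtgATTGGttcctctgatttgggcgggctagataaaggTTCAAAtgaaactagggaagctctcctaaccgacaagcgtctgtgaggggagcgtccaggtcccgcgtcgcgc
Rfc4 (chr16:23127681-23127980, minus strand): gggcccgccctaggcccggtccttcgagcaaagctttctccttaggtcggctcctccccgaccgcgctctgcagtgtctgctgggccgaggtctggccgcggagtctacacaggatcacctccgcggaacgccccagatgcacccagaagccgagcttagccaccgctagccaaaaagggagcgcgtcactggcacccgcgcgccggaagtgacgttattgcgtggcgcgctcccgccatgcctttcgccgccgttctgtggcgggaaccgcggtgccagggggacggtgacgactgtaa

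In Cdk1 the E2F core begins at position -131 from the start and the CHR elements at -71 and -15, and in Top2a the CHR elements begin at -179 and -23. Of the 33 member promoters, 13 (39.4%) held the CHR letters, against 17.9% of all 32851 promoters in the table. The E2F core stood in 7 (21.2%, against 6.7% of all) and a CCAAT box in 26 (78.8%, against 37.4% of all). By role, CHR letters were in 12 of 16 promoters of mitosis genes and in 1 of 17 promoters of G1, S phase and replication genes, that of Mcm2. The E2F core was in 2 of 16 and 5 of 17. A match of letters is a description, not a binding site, and the absence of these letters in Rfc4, Rfc5, Tyms, Tk1, E2f1 and Ccne1 says nothing of any factor.

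**Figure D1:**
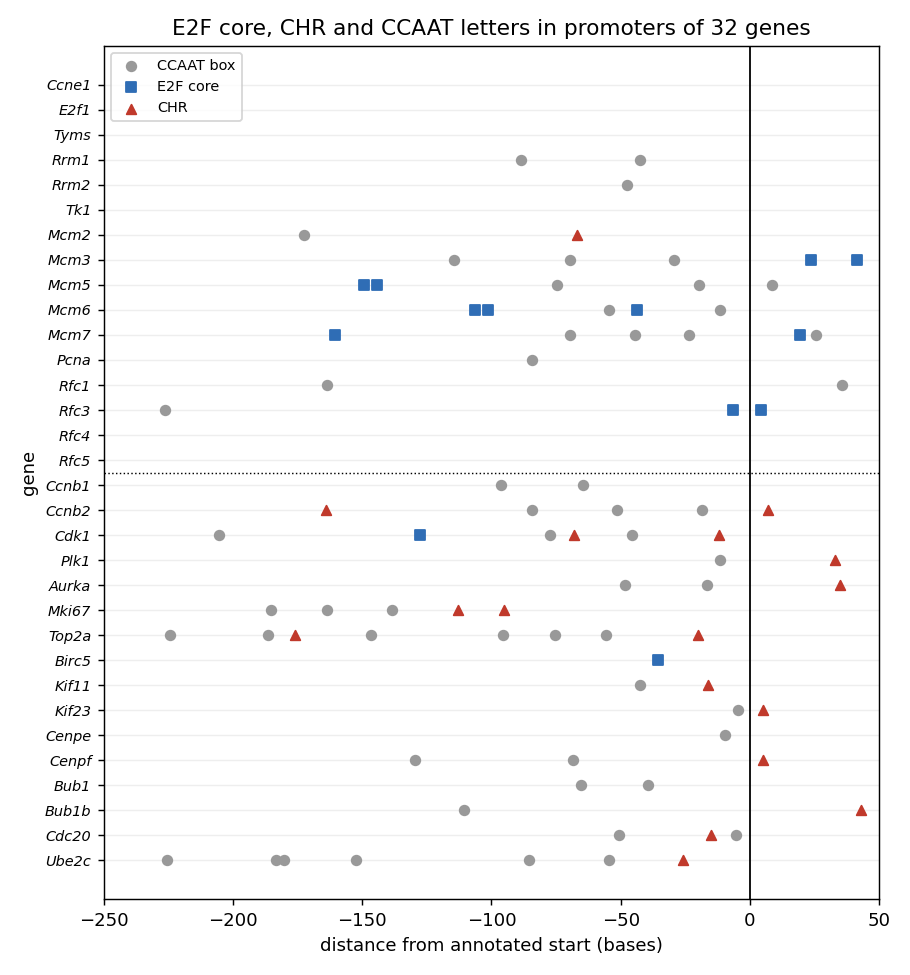
Positions of the E2F core (squares), CHR (triangles) and CCAAT letters (circles) in the promoters of 32 genes, as distance in bases from the annotated start, with replication genes above the dotted line and mitosis genes below it. The row of Mcm7 holds 2 promoters, and CHR letters lie in 12 of 16 mitosis promoters and 1 of 17 others.

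All 40 genes were detected above the filter of a mean of 1 TPM, from Kif11 at 1.97 TPM to Stmn1, which encodes the microtubule-destabilizing protein stathmin, at 230.7 TPM. The median gene was at 22.4 TPM. Replication genes were the more abundant: Pcna and Rfc2 averaged 120.5 and 118.7 TPM over the 8 libraries, and the 6 MCM genes 27.3 to 79.5 TPM. Of the mitosis genes, Cdk1 averaged 33.6, Birc5 32.5 and Top2a 21.1 TPM, while the long transcripts of Mki67, Cenpf and Cenpe averaged 4.57, 2.92 and 2.46 TPM. Together the 40 genes held 0.103% to 0.163% of the total TPM of a library.

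No gene passed: by limma with Benjamini-Hochberg adjustment, 0 of 11725 tested genes (0%) had an adjusted p under 0.05, and the smallest among the 40 was 0.179. Without adjustment, 5 of the 40 (12.5%) stood lower in LOY libraries at a p under 0.05 and 0 higher, namely Rfc4, Gins2, Rfc2, Tyms and Rfc5. Among all tested genes 19.3% stood higher and 3.45% lower at that level. In 3 of the 40, Rfc1, Rfc2 and Rfc4, the groups did not overlap and LOY was lower, and in 0 was LOY higher, against 2.61% and 6.76% of all tested genes. The median log2 fold change of the 40 was -0.08, on the log2(TPM + 1) scale, where that of all tested genes was 0.16. The 95% interval of a member reached 0.42 to either side on that scale in the median, which limits what 4 against 4 libraries can resolve. The sign of the median rested on single libraries: it was 0.093 without LOY replicate 1 and 0.029 without control replicate 2.

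**Figure D2:**
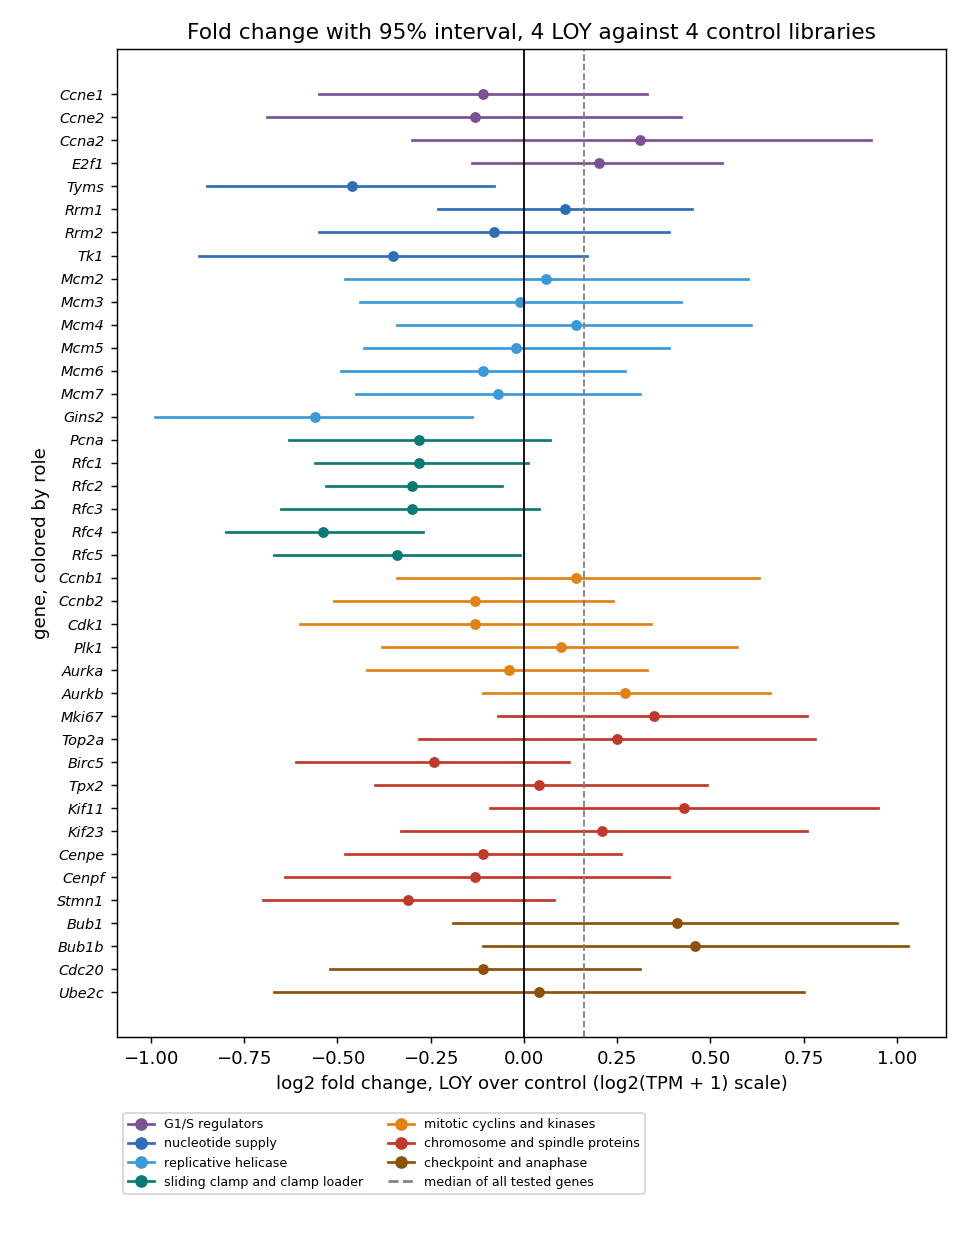
Log2 fold change of LOY over control with its 95% interval for each of the 40 genes (limma, log2(TPM + 1) scale, 4 against 4 libraries), colored by role, with the median of all tested genes at 0.16 as a dashed line. The 6 genes of the clamp and clamp loader all lie below 0, and the checkpoint genes Bub1 and Bub1b lie farthest above it among the mitosis genes with Kif11.

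The most uniform sign among the role groups was in the replication clamp and its loader, singled out after the values were seen. The clamp PCNA is a ring that holds polymerases on DNA, and replication factor C, built of the large subunit RFC1 and the small subunits RFC2 to RFC5, opens the ring and loads it. The log2 fold change was negative for all 6 genes, in the reported test and in each of 19 alternatives. Their median was -0.30 (-0.50 to -0.24 over the alternatives). The alternatives reuse the same 8 libraries or a part of them, so the shared sign adds no independent support. Of all 11725 tested genes, 8001 stood above 0 in the reported test. A negative sign was less unusual where scaling moved the median of all genes, to 0.00 (median-of-ratios) or -0.02 (quantile). The summed TPM of the 6 genes was 345.9, 440.5, 392.7 and 365.4 in control and 278.6, 342.7, 318.6 and 301.6 in LOY replicates 1 to 4. Each LOY sum lay below each control sum, but LOY replicate 2 (342.7) and control replicate 1 (345.9) were separated by a small margin. Pcna and Rfc2, at means of 120.5 and 118.7 TPM, weigh most in these sums. Among single genes, 2.61% of all tested were lower in LOY without overlap.

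Rfc4 (chromosome 16, 23113943 to 23127737, GRCm38) stood at 23.6, 27.2, 27.7 and 24.5 TPM in control replicates 1 to 4 and at 16.8, 17.8, 16.6 and 18.5 TPM in LOY replicates 1 to 4. The gap between the groups was wider than the spread within either. Its mean was 25.7 ± 2.0 against 17.4 ± 0.891 TPM (SD, n = 4), or 67.7% of control, and the log2 fold change was -0.54 ± 0.12 (SE), with a limma adjusted p of 0.179. The exact two-sided permutation p was 0.0286, the smallest that 4 against 4 libraries allow. Any gene whose groups do not overlap gets this value, as 2.61% (lower) and 6.76% (higher) of all tested genes did. It therefore adds no support beyond the lack of overlap. Rfc4 had an unadjusted p under 0.05 in 19 of 19 alternatives, and its limma adjusted p ranged from 0.0096 to 0.402 over them. When control replicate 1 was left out it passed (limma adjusted p = 0.0202), together with Gins2, where 0.537% of all genes passed as lower. With library weights it passed as well (limma adjusted p = 0.0096), with Gins2, Rfc2 and Tyms, where 3% of all genes passed as lower. Without LOY replicate 2, which kept part of its Y transcripts, the log2 fold change of Rfc4 was -0.55, the median of the 6 clamp and loader genes was -0.38, and 7 of the 40 genes were lower at an unadjusted p under 0.05, where 2.68% of all genes were. Exons of Rfc4 overlap those of the translation factor gene Eif4a2 on the opposite strand, and the library kit keeps no strand. Eif4a2 averaged 84.4 ± 11.1 (control) and 113.1 ± 18.7 TPM (LOY; SD, n = 4), and the part of its reads in Rfc4 was not tested.

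Rfc2 (chromosome 5), the most abundant small subunit gene, had control values of 120.8, 138.4, 141.9 and 122.8 TPM and LOY values of 109.6, 105.8, 112.1 and 98.3 TPM. The groups did not overlap (log2 fold change -0.30, SE 0.11, limma adjusted p = 0.182). Rfc2 shares exon sequence with Lat2, an adaptor gene of myeloid cells on the opposite strand, which was lower as well, at 461.6 ± 29.6 against 387.0 ± 27.3 TPM (SD, n = 4), and the part of its reads in Rfc2 was not tested. Rfc1, the large subunit gene, had control values of 25.9, 29.3, 22.8 and 23.9 TPM and LOY values of 18.6, 21.7, 22.6 and 20.5 TPM. Its groups did not overlap by a small margin, with control replicate 3 next to LOY replicate 3 (log2 fold change -0.28, SE 0.13, limma adjusted p = 0.230). Rfc5 had control values of 33.9, 39.5, 33.4 and 26.9 TPM and LOY values of 21.9, 29.7, 27.7 and 25.1 TPM, where control replicate 4 lay within the LOY range (log2 fold change -0.34, SE 0.15). Its exons overlap those of Wsb2 on the opposite strand, at 41.6 ± 4.37 against 51.8 ± 1.73 TPM (SD, n = 4), and shared reads were not tested. Rfc3 averaged 38.1 ± 3.48 against 31.0 ± 5.92 TPM (SD, n = 4), with LOY replicate 1 lowest at 23.0 TPM. Pcna had control values of 106.0, 163.6, 132.0 and 128.0 TPM and LOY values of 88.8, 130.6, 106.8 and 108.1 TPM. Its groups overlapped, with control replicate 1 below LOY replicates 2, 3 and 4 (log2 fold change -0.28, with SE 0.16 and a limma adjusted p of 0.296).

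**Figure D3:**
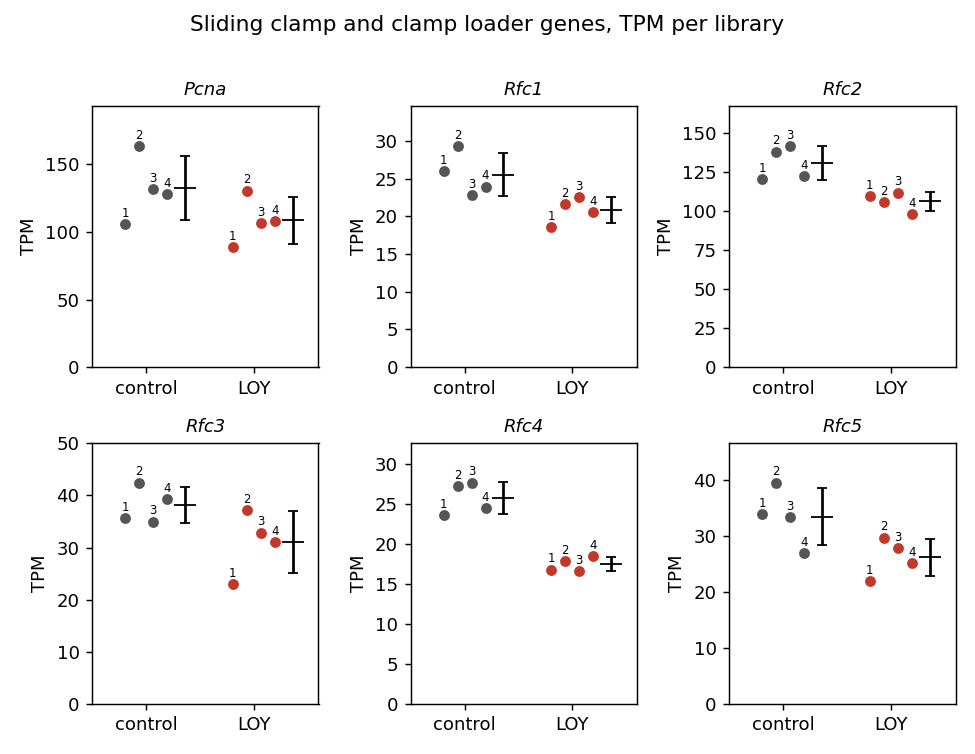
TPM of Pcna and Rfc1 to Rfc5 in each library (points, numbered by replicate), with mean and SD of each group (n = 4) as a bar. For Rfc1, Rfc2 and Rfc4 all 4 LOY points lie below all 4 control points, and for Pcna, Rfc3 and Rfc5 the groups overlap.

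The replicative helicase genes centred on -0.02 (median, log2 scale) and were not tested against the clamp loader. MCM2 to MCM7 form the ring that unwinds DNA, and GINS2 is a subunit of the GINS complex that activates it. Mcm5 had control values of 57.7, 67.0, 41.6 and 63.5 TPM and LOY values of 42.5, 69.8, 58.0 and 56.2 TPM, a log2 fold change of -0.02 (95% interval -0.43 to 0.39). The groups covered the same range. The other MCM genes had log2 fold changes between -0.11 (Mcm6) and 0.14 (Mcm4), with Mcm2 at 0.06, Mcm3 at -0.01 and Mcm7 at -0.07. Their lowest value in every case was in control replicate 3, as it was for Mcm5. Under other scalings all 7 helicase genes were below 0, with medians of -0.20 (median-of-ratios), -0.16 (quantile) and -0.27 (length and GC correction). Gins2 differed from the MCM genes: it had control values of 26.9, 43.4, 33.1 and 33.7 TPM and LOY values of 16.8, 22.5, 29.4 and 23.2 TPM. Control replicate 1 lay below LOY replicate 3, so the groups overlapped (67.0% of the control mean, log2 fold change -0.56, SE 0.19, limma adjusted p = 0.181). Its unadjusted p was under 0.05 in 19 of 19 alternatives, against 17 for Rfc2 and Tyms and 12 for Rfc5. Exons of Gins2 overlap those of Gse1, which averaged 1.82 and 2.59 TPM in the 2 groups.

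Of the enzymes of nucleotide supply, Tyms, which makes thymidylate, had control values of 32.2, 41.0, 34.1 and 26.8 TPM and LOY values of 18.4, 25.5, 23.5 and 28.9 TPM. Only LOY replicate 4 and control replicate 4 crossed (log2 fold change -0.46, SE 0.17, limma adjusted p = 0.182). For comparison, the thymidine kinase gene Tk1 averaged 36.7 ± 10.01 against 28.7 ± 7.47 TPM (SD, n = 4). The ribonucleotide reductase genes Rrm1 and Rrm2 differed by 0.11 (SE 0.15) and -0.08 (SE 0.21) on the log2 scale. The authors' deposited table, under the column names of a DESeq2 result, gave Tyms a log2 fold change of -0.14, Gins2 -0.25 and Rfc1 -0.07, nearer to 0 than the TPM. So were Rfc5 (-0.18) and Rfc3 (-0.24) there, while Pcna and Rfc2 each stood at -0.30 in that table. The authors' table gave Rfc4 -0.59 with an adjusted p of 0.089, the smallest among the 40 there.

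Among G1 and S phase regulators, E2f1, the activator of the S phase program, had control values of 49.6, 39.8, 33.3 and 44.1 TPM and LOY values of 41.3, 55.7, 50.3 and 43.7 TPM, overlapping in part (log2 fold change 0.20, SE 0.15). The cyclin E genes Ccne1 and Ccne2, which act at S phase entry, averaged 4.87 against 4.40 and 6.55 against 6.02 TPM. Ccna2, whose cyclin A acts in S phase and G2, had control values of 9.09, 13.5, 10.4 and 11.4 TPM and LOY values of 8.03, 17.4, 11.5 and 22.6 TPM. LOY replicates 2 and 4 lay above every control and LOY replicate 1 below every control.

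The mitotic cyclins and kinases had fold changes on both sides of 0. Ccnb1, cyclin B1, had control values of 8.93, 13.7, 15.3 and 13.9 TPM and LOY values of 9.51, 15.3, 15.8 and 17.2 TPM, with replicate 1 the lowest in each group (log2 fold change 0.14, 95% interval -0.34 to 0.63). Cdk1 had control values of 30.3, 38.6, 37.1 and 32.9 TPM and LOY values of 19.3, 36.1, 34.4 and 40.4 TPM, where LOY replicate 1 was far below the rest (log2 fold change -0.13, SE 0.21). Aurkb, the kinase of the chromosomal passenger complex, had control values of 17.2, 22.2, 15.98 and 17.7 TPM and LOY values of 17.7, 24.7, 19.4 and 27.97 TPM, again overlapping (log2 fold change 0.27, SE 0.17). Ccnb2, Plk1 and the spindle pole kinase gene Aurka had log2 fold changes of -0.13, 0.10 and -0.04.

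Among chromosome and spindle genes the proliferation marker Mki67 had control values of 4.55, 3.83, 3.54 and 3.56 TPM and LOY values of 4.38, 4.95, 4.44 and 7.31 TPM. LOY replicate 4 was highest, and control replicate 1 lay within the LOY range (log2 fold change 0.35, SE 0.19, limma adjusted p = 0.278). Top2a had control values of 18.7, 21.2, 17.8 and 17.1 TPM and LOY values of 14.2, 30.1, 18.2 and 31.7 TPM. The LOY libraries were split, with replicates 2 and 4 above and replicate 1 below all controls (log2 fold change 0.25, SE 0.24, limma adjusted p = 0.531). Kif11, the motor that pushes spindle poles apart, was also highest in LOY replicates 2 and 4, at 1.29 to 1.93 TPM in control and 1.33, 2.91, 1.88 and 3.72 TPM in LOY libraries. The cytokinesis motor gene Kif23 and the spindle assembly factor gene Tpx2 had log2 fold changes of 0.21 and 0.04. Birc5, which encodes survivin, Stmn1, Cenpf and the kinetochore motor gene Cenpe had log2 fold changes of -0.24, -0.31, -0.13 and -0.11.

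Of the genes of the spindle checkpoint and anaphase, Bub1b had control values of 13.5, 11.5, 6.49 and 10.9 TPM and LOY values of 9.62, 18.7, 13.3 and 18.3 TPM. LOY replicates 2 and 4 lay above every control (log2 fold change 0.46, SE 0.26, limma adjusted p = 0.291). Bub1, which encodes a related checkpoint kinase, averaged 3.24 ± 0.644 against 4.88 ± 2.15 TPM (SD, n = 4). Cdc20 and Ube2c, an activator and a ubiquitin-conjugating enzyme of the anaphase-promoting complex, had log2 fold changes of -0.11 and 0.04. In the authors' deposited table, Kif11, Top2a, Mki67 and Bub1b had log2 fold changes of 0.75, 0.54, 0.48 and 0.55. These 4 were the members higher there at an unadjusted p under 0.05, where 23.8% of genes were, and Rfc4 was the 1 member lower, where 0.828% were. None of the 40 had an adjusted p under 0.05 in the authors' deposited table, where 4.44% of genes did.

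**Figure D4:**
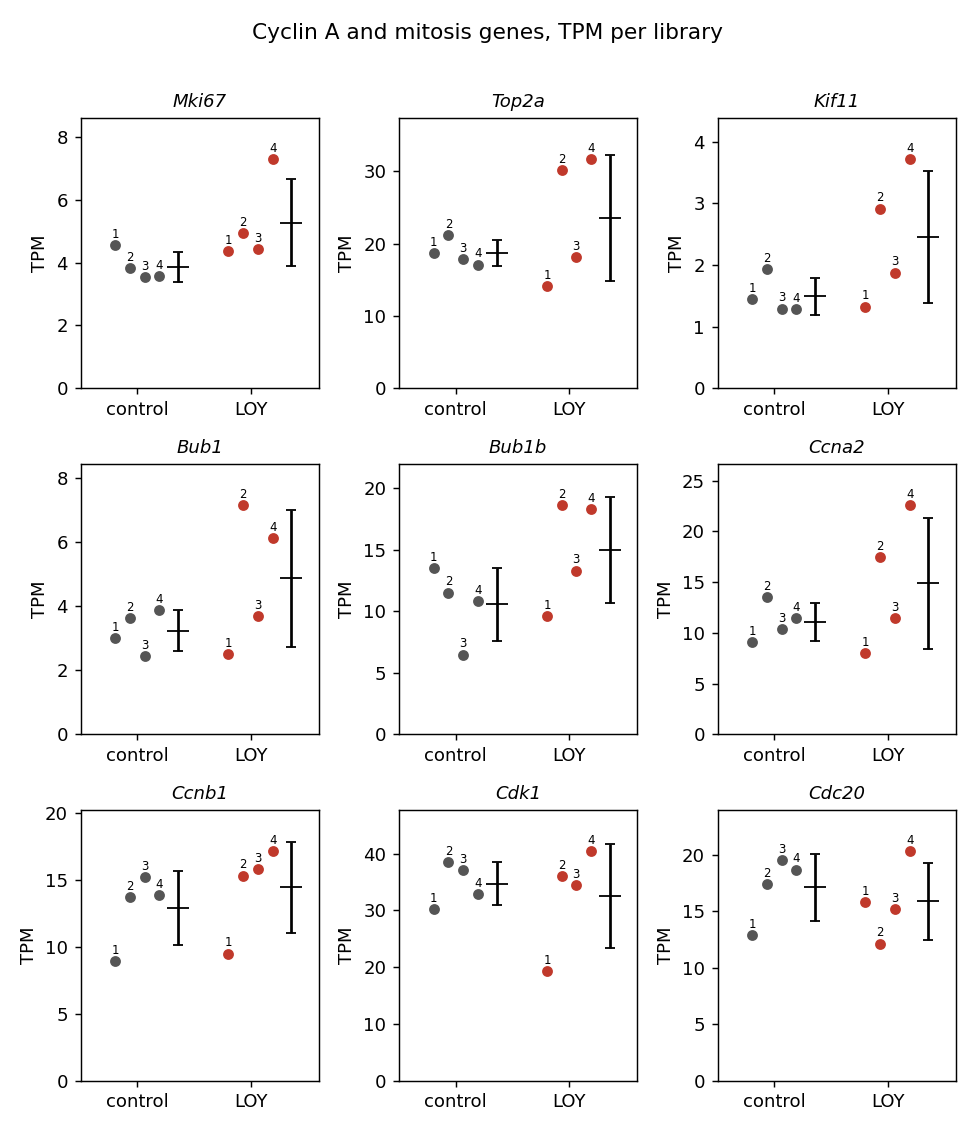
TPM of cyclin A and mitosis genes in each library (points, numbered by replicate), with mean and SD of each group (n = 4) as a bar. LOY replicates 2 and 4 lie above all controls for Mki67, Top2a, Kif11, Bub1, Bub1b, Ccna2 and, by a small margin, Ccnb1. LOY replicate 1 lies below all controls for Top2a, Ccna2 and Cdk1.

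Single libraries set much of the variation. LOY replicate 1 was the lowest of the 8 libraries for 21 of the 40 genes and above the gene's mean for 0, with a median level of 73.8% of the gene mean. LOY replicate 4 was the highest for 10 of 19 mitosis genes and 1 of 21 replication genes, and control replicate 2 was the highest for 12 of 21 replication genes and 0 of 19 mitosis genes. Control replicate 3 was the lowest for 8 replication genes, among them the 6 MCM genes, and for 4 mitosis genes, Aurkb, Mki67, Bub1 and Bub1b. It was the highest for 6 mitosis genes and for Rfc2 and Rfc4. The summed TPM of the 40 was 1420 ± 142.9 in control and 1277 ± 180.3 in LOY libraries (SD, n = 4), with LOY replicate 1 lowest at 1032. LOY replicate 1 also had the highest sums of macrophage (32200 TPM), B cell (961.8 TPM) and cardiomyocyte markers (196.2 TPM).

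Without LOY replicate 1, 5 of the 40 stood higher at an unadjusted p under 0.05 (Ccna2, Top2a, Kif11, Bub1 and Bub1b), where 21% of all genes did, and 3 lower (Rfc4, Gins2 and Rfc2), where 5.09% did. The log2 fold changes were then 0.64 (SE 0.24) for Bub1b, 0.63 (SE 0.23) for Bub1, 0.60 (SE 0.21) for Kif11, 0.55 (SE 0.23) for Ccna2 and 0.46 (SE 0.20) for Top2a, with limma adjusted p from 0.143 to 0.186. Those of Rfc4, Gins2 and Rfc2 were -0.52, -0.43 and -0.31. The clamp loader and the checkpoint genes were not tested against each other.

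**Figure D5:**
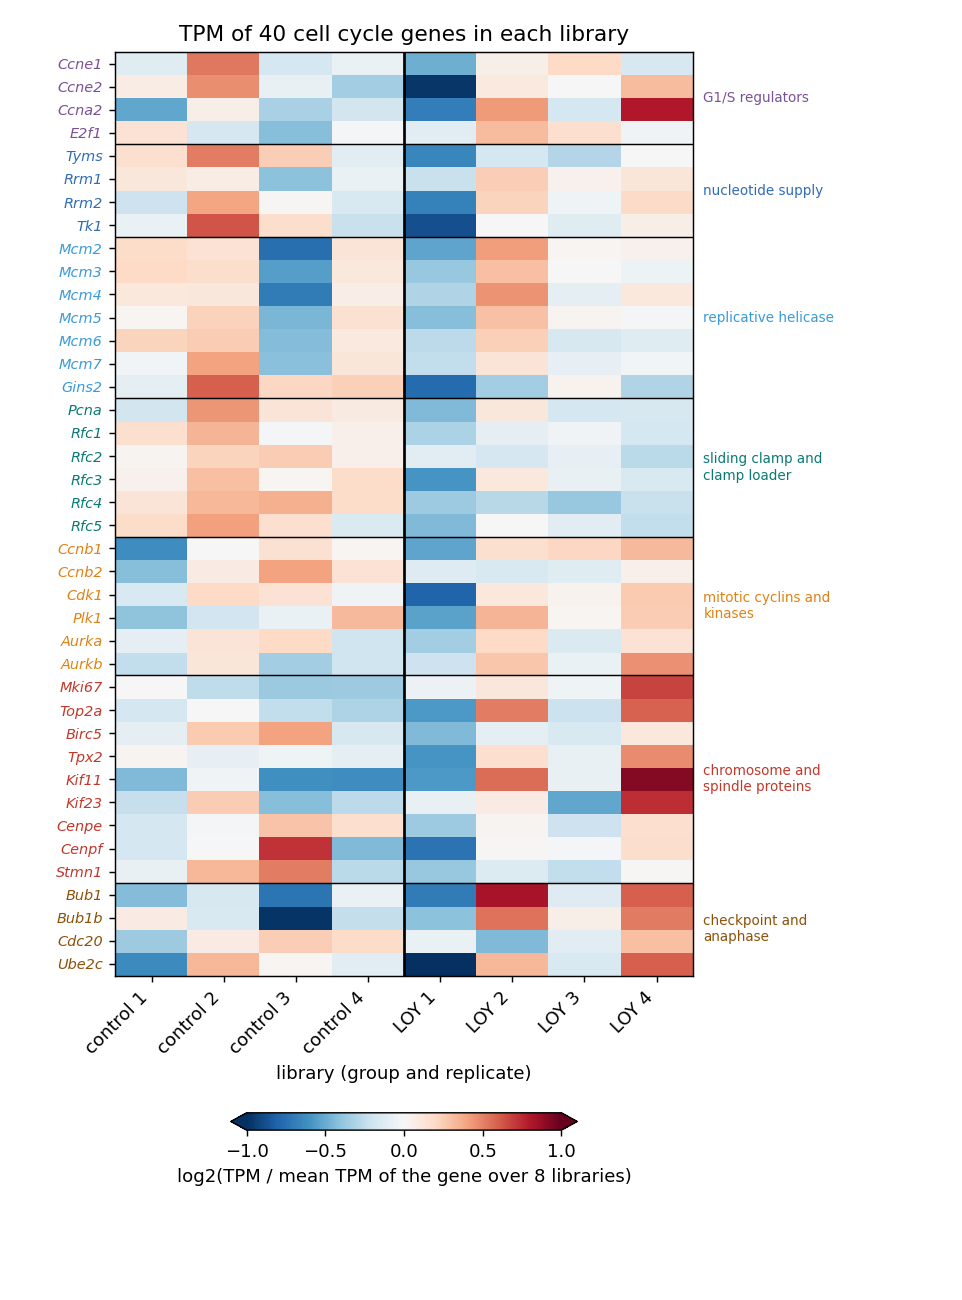
Level of each of the 40 genes in each library as log2 of TPM over the gene's mean over 8 libraries, with control left and LOY right of the line and colors ending at 1 and -1. LOY replicate 1 is at or below the mean for all 40 genes, and Rfc4 is below its mean in all 4 LOY libraries, also in replicates 2 and 4, where Top2a, Kif11 and Bub1b are above theirs.

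Median-of-ratios scaling moved the values of all 40 genes down together, and the length and GC correction moved values in both directions. After median-of-ratios scaling, which set the median of all genes to 0.00, the median of the 40 was -0.25, 9 of 40 stood above 0 and 10 were lower at an unadjusted p under 0.05, where 11% of all genes were lower and 10.8% higher. Those 10 were Pcna, Rfc1 to Rfc5, Tyms, Gins2, Birc5 and Stmn1. The clamp and loader genes then had a median of -0.48, while Mki67 stood at 0.20, Top2a at 0.07, Bub1b at 0.29 and Kif11 at 0.31. After correction for transcript length and GC content, Mki67 turned to -0.15 and Top2a to -0.04, and Bub1b and Kif11 kept 0.21 and 0.18. The longest transcript of Mki67 has 10061 bases and that of Rfc4 1279 bases, against a median of 3180 bases for tested genes. Rfc4 stood at -0.43 and Rfc2, of 4995 bases, at -0.68 after that correction.

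In 10 lists of other cell cycle genes, 141 were tested, of which 0 passed over all genes. Without adjustment, 13 (9.22%) were higher at a p under 0.05 and 8 (5.67%) lower, where 19.3% and 3.45% of all genes were. Of the 8 lower, 7 were among the 35 genes of origin licensing, polymerases and fork proteins, which held 1 of the 13 higher. Those 35 thus had 20.0% lower and 2.86% higher. The lists as a whole were less one-sided. Of 16 origin licensing genes 9 stood above 0 (median log2 fold change 0.08). Of 19 polymerase and fork genes 7 did (median -0.13), where the median of all tested genes was 0.16. Gmnn, which encodes the licensing inhibitor geminin, averaged 44.0 ± 4.59 against 29.2 ± 5.06 TPM (SD, n = 4), and its groups did not overlap (log2 fold change -0.58, limma adjusted p = 0.179). Gins1, a partner of Gins2 in the GINS complex, averaged 18.5 ± 3.19 against 10.6 ± 2.72 TPM (log2 fold change -0.76, limma adjusted p = 0.179). The other GINS genes, Gins3 and Gins4, named after their values were seen, had log2 fold changes of 0.30 and -0.18. Dut, which removes dUTP, had a log2 fold change of -0.48, its groups not overlapping, and the single-strand binding gene Rpa2 one of -0.39. The other 3 of the 7 lower genes were Cdc6, Rpa3 and Chaf1b, named after their values were seen, at -0.41, -0.33 and -0.44.

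Among upstream regulators, 3 of 19 RB, E2F and DREAM genes (15.8%) stood higher and 0 lower, below the 19.3% of all genes that stood higher, and their median was 0.26 beside 0.16 for all genes. The pocket protein gene Rbl2, which represses E2F targets in resting cells, averaged 17.4 ± 7.03 against 28.7 ± 4.61 TPM (log2 fold change 0.75, SE 0.24), and Lin54, the DREAM subunit that reads CHR letters, 5.44 ± 1.44 against 8.67 ± 1.48 TPM (SD, n = 4; log2 fold change 0.60, SE 0.20). Both had a limma adjusted p of 0.181. Of 7 D-type cyclin and G1 kinase genes 1 stood higher, the cyclin gene Ccnd3 (0.37), and of 6 CDK inhibitor genes 0 did in either direction. Of 13 kinetochore genes 1 stood higher, Mis12 (0.48), and 1 lower, Cenpm (-0.46), and of 18 spindle motor and assembly genes Kif4 (0.49) alone had such a p.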

How the data were processed

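RNA of 8 libraries was made into full-length cDNA with the SMART-Seq v4 kit, per the labels' protocols. The submitters' processing notes name STAR 2.5.2b, Subread 1.5.2 (featureCounts), Trimmomatic 0.36, bcl2fastq 2.17 and the GRCm38 build. Which tool computed TPM is not stated there. The deposited TPM sum to 1000000 per library, so read depth is unknown and no counting interval is given. The authors' comparison columns hold a log2 fold change and its error, a score (their ratio), p-values, and a mean signal that was not used. Columns named WT and KO were read as control and LOY, with their numbers as replicate numbers.

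A mean of 1 TPM or more was required (11881 genes), 156 IDs that repeated another were dropped, 1 was added and log2 taken. With trend and robust options, limma 3.58.1 (R 4.3.3) compared 4 LOY with 4 control libraries, two-sided, over 11725 genes (exact permutation p-values enumerate 70 assignments of libraries). The fit was also run on simulated data with independent noise per gene and planted effects larger than those of the members. That simulation held no library-wide shifts, so it does not bear on the precision here. Sums over lists are descriptions without a test. Coordinates, lengths and exon overlaps are from GENCODE M21 (GRCm38), and 10 of the 40 genes share exon sequence with a coding gene on the opposite strand. Protein sequences were not used here.

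The 40 members and all lists were chosen with earlier results of these data known. Values in every library were to be given for Mki67, Top2a, Ccnb1, Cdk1, Pcna, Mcm5, members with an unadjusted p under 0.05 or groups that do not overlap, and the member with the smallest p per role. At most 2 genes per other list were named by p. Library values of Ccna2 and Kif11 were added after they were seen. The alternatives were other pseudocounts (0.1 and 5), no filter or a mean of 5 TPM, quantile normalization, median-of-ratios scaling, a replicate block, other limma options, library weights, a length and GC correction, keeping repeated IDs and leaving out each library.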

Additional observations from a re-analysis of the deposited data

Results flagged for a closer look

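Within groups of 4 libraries, 5 of 96 groups checked (40 genes and 8 sums, in 2 groups each) held 1 library far from the other 3, and chance gives about 1 in 20. In control replicate 3, Mcm2 was at 21.5 TPM (39.6 to 41.1 in the other controls), Mcm3 at 45.3 TPM (71.6 to 76.3) and Mcm4 at 16.8 TPM (28.6 to 29.5). Control replicate 2 had the highest Ccne1 of its group, 6.69 TPM against 4.09 to 4.42 TPM. LOY replicate 4 had the highest Ccnb2, 21.99 TPM against 19.1 to 19.5 TPM. The 3 MCM flags share 1 library and are not independent of each other.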

How the results depend on the processing

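With all libraries an unadjusted p under 0.05 was found for 5 members that were lower and 0 that were higher. Shares in parentheses are of all genes called in the same direction and setting. The 5 lower (3.45%) became 10 after median-of-ratios scaling (11%), 9 after removal of a length and GC trend (7.72%) and 8 with library weights (7.2%). With weights 5 stood higher, where 33.6% of all genes did, 4779 of all genes had such a p and 3103 passed the adjusted threshold. Leaving out each library in turn gave from 2 members lower without control replicate 2 (1.88%) to 7 without LOY replicate 2 (2.68%). Higher were 5 without LOY replicate 1 (21%), 1 without control replicate 1 (29.5%) and 0 without any other library (9.93% to 17.1%). Leaving out libraries gave a member median of -0.125 to 0.093. Over all genes it gave 1411 to 3875 with an unadjusted p under 0.05 (2667 with all 8) and 0 to 1805 past the adjusted threshold. Of the adjusted counts above 0, 1805 came from leaving out control replicate 1, 5 LOY replicate 2 and 1 control replicate 4. Counts at an unadjusted p were 1498, 1411, 1653 and 1474 on leaving out control replicates 2 and 3 and LOY replicates 2 and 4. The lower members were 2 without control replicate 2 and 3 without LOY replicate 1 or LOY replicate 4. Rfc5 lost its unadjusted p under 0.05 in 7 alternatives: without control replicate 1, 2 or 3, without LOY replicate 1, 3 or 4, and without the trend and robust options. Why was not tested.

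The replicate numbers share only a number: across genes, deviations of same-numbered libraries correlated at -0.0298, -0.152, 0.0392 and -0.0719, and 0 of 8 libraries correlated best with their own number. With the replicate number as a block, 6 members were lower (3.51%) and 0 higher. Signs of the 40 fold changes did not turn with other pseudocounts, filters, limma options without weights, the block or repeated IDs. They turned for 8 genes after quantile normalization, 7 after median-of-ratios scaling, 9 after the length and GC correction and 3 with library weights. Leaving out a single library turned from 0 signs (LOY replicate 3) to 7 (LOY replicate 1), with 5 without control replicate 2. Depth is unknown, so the precision of low genes such as Kif11 and Cenpe rests on the spread between libraries alone.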

Other observations

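Genes of condensin, of cohesin, which holds sister chromatids together, and of mitotic exit were described beside the members. Of 12 condensin and cohesin genes 2 (16.7%) stood higher at an unadjusted p under 0.05 and 0 lower, a share of higher genes below the 19.3% of all genes tested. The cohesin subunit gene Stag1 was at 19.1, 17.9, 17.4 and 15.5 TPM in control and 25.7, 26.0, 22.1 and 26.3 TPM in LOY replicates 1 to 4, so that the groups did not overlap (log2 fold change 0.49, SE 0.13, limma adjusted p = 0.179). Its paralog Stag2 averaged 16.2 ± 4.98 against 27.5 ± 6.30 TPM (SD, n = 4), with control replicate 1 inside the LOY range. Both proteins also act in resting cells, where cohesin shapes chromatin loops.

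Of 21 genes of the anaphase-promoting complex and mitotic exit, 4 (19%) stood higher and 0 lower, close to the 19.3% of all genes. The scaffold gene Anapc1 averaged 11.5 ± 7.90 against 23.2 ± 7.78 TPM, with control replicate 1 at 22.7 TPM, and the phosphatase gene Cdc25b, an activator of CDK1, 6.90 ± 2.37 against 11.3 ± 2.24 TPM (SD, n = 4). The CDK inhibitor gene Cdkn1a, named after its value was seen, was the most abundant of its list, with group means of 492.3 (control) and 458.0 TPM (LOY), and of 10 quiescence and antiproliferative genes 0 had such a p.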
